A study of Mus musculus with 15 samples.

Results

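The 10 genes described here are the cathepsins Ctsb, Ctsc, Ctsd, Ctse, Ctsh, Ctsl, Ctss and Ctsz, the asparaginyl endopeptidase Lgmn and the cathepsin inhibitor Cst3, out of 38924 genes in the deposited tables. They were chosen by name, and each symbol was matched to 1 Ensembl identifier. All 10 passed the filter on low counts (more than 1 CPM, counts per 1000000, in at least 3 libraries). The study sequenced RNA from 5 sorted subtypes of murine mononuclear phagocytes (MPs), with 3 libraries each. DC1 were CD8+ DCs of the spleen and CD103+ DCs of the lymph nodes (LNs) of the lung, DC2 were CD4+ DCs of the spleen and CD11b+ DCs of those LNs, and Ly6C+ monocytes were splenic. Every library came from cells of 5 pooled naïve female C57BL/6 mice, with no treatment and no transgene, aged 6 to 8 weeks by the sample descriptions. Sorting used CD11c and MHC class II with CD8, CD4, CD103 or CD11b for DCs, after enrichment on CD11c beads, and Ly6C with CD11b for monocytes, after enrichment on CD11b beads. Separate cohorts provided LNs and spleens, and a gate on high MHC class II was set for LN DCs alone, so the organ, the cohort and the gate cannot be told apart in a comparison of LN with spleen.

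Antigen-presenting cells degrade the proteins they take up in acidified endosomes and lysosomes. Cysteine cathepsins, aspartic cathepsins and asparaginyl endopeptidase cut these proteins and also cut the invariant chain away from MHC class II, which frees the groove for peptide. Cystatins are small proteins that bind and block cysteine cathepsins. Cystatin C, the product of Cst3, is made in large amounts by some DCs and is mostly secreted. DC1 are known for presenting antigen of dead cells on MHC class I and DC2 for presentation on MHC class II, while monocytes can give rise to macrophages.

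Promoter sequences are shown for Ctss, Ctsd and Cst3, the most abundant cysteine cathepsin, the aspartic cathepsin with the widest range among the DC subtypes and the inhibitor, which was highest where most proteases were lowest. Each is the 250 bases before the RefSeq start site in GRCm38.p6, read 5′ to 3′ on the strand of the gene. Ctss lies at chr3:95526536-95526785, plus strand, Ctsd at chr7:142387828-142388077, minus strand and Cst3 at chr2:148875513-148875762, minus strand. The Ensembl genes used for counting begin further upstream for Ctsd (142388038) and Cst3 (148875692). Most of each of these windows therefore lies inside the counted gene. Capitals mark CACGTG (the E-box letters bound by factors such as Tfeb) with its 8-base form TCACGTGA, GAAA repeated after any 2 bases (letters of interferon response elements), GAGGAA (letters found in PU.1 sites) and GGGCGG (the GC box), on either strand.
Ctss: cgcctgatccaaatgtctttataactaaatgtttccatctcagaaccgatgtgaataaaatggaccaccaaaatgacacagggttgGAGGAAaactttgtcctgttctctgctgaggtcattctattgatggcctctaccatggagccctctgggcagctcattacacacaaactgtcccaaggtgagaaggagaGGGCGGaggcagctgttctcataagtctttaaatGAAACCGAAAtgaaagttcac
Ctsd: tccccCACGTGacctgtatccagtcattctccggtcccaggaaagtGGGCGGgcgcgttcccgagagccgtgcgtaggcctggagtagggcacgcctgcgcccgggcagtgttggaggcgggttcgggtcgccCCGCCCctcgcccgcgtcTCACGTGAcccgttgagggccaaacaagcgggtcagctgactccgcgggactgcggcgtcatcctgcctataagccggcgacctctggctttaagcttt
Cst3: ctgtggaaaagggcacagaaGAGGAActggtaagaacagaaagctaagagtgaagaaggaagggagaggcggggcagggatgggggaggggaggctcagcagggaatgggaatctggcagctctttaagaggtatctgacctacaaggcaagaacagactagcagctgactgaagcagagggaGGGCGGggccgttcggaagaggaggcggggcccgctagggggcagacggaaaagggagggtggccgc
Both strands were searched, and TCACGTGA always holds CACGTG. The Ctss window held GAAACCGAAA from 21 to 12 bases before the start, and that spaced repeat was found in 2.98% of the 32851 promoter windows of this length. The Ctsd window held CACGTG at 2 places, 1 of them as TCACGTGA from 99 to 92 bases before the start. CACGTG was found in 6.02% of all windows and TCACGTGA in 0.785%. The Cst3 window held none of these 3, and held GAGGAA and GGGCGG, which were found in 23.3% and 32.7% of all windows. Windows were matched for 7 of the 10 genes (8 windows, since Lgmn has 2 starts). CACGTG was found in those of Ctsd and Ctsl and in 1 of the 2 of Lgmn. Ctsb, Ctse and Ctsh had no entry. A match in letters is a description of the window and not a binding site.

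Values below are CPM scaled with edgeR's TMM factors, given in the order of replicates 1, 2 and 3 or as mean ± SD (n = 3 libraries). They compare 1 gene between subtypes. Levels of different genes are compared in TPM (transcripts per 1000000, which divide by exon length). Adjusted p values come from edgeR's quasi-likelihood test with Benjamini-Hochberg adjustment over all 14456 genes tested, with a threshold of 0.05, and a gene past it is said to be called. Log2 fold changes are DC1 minus DC2, LN minus spleen or monocytes minus DCs. The p values measure the spread between pools of mice. Gene positions are in mm10 as the deposited files give them. In bulk libraries, fewer cells of a type and less RNA per cell cannot be told apart.

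All 10 genes were called in an F test over the 5 subtypes, which called 73.5% of all genes tested. Splenic CD8+ DCs had the lowest mean of the 5 subtypes for 7 of the 9 proteases (Ctsb, Ctsh, Ctsl, Ctss, Ctsz, Ctsd and Lgmn) and the highest for the inhibitor Cst3. The step to the next subtype was not called for Ctsb (adjusted p = 0.180), Ctsl (0.859), Lgmn (0.139) and Cst3 (0.0629). The share of all genes with their lowest mean in splenic CD8+ DCs is not given. Splenic monocytes had the highest mean for 5 proteases (Ctsb, Ctsc, Ctsl, Ctss and Ctse), LN CD11b+ DCs for 3 (Ctsh, Ctsd and Lgmn) and LN CD103+ DCs for Ctsz. Of these highest means, those of Ctss, Ctsh, Ctsd, Lgmn and Ctsz were not called against the next subtype. The ratio of the highest to the lowest mean ran from 3.26 for Ctss to 11.6 for Cst3. When the 5 subtypes of each gene were put in order of their means, 16 of the 40 neighbouring pairs were called (16.2% of such pairs over all genes tested).

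**Figure D1:**
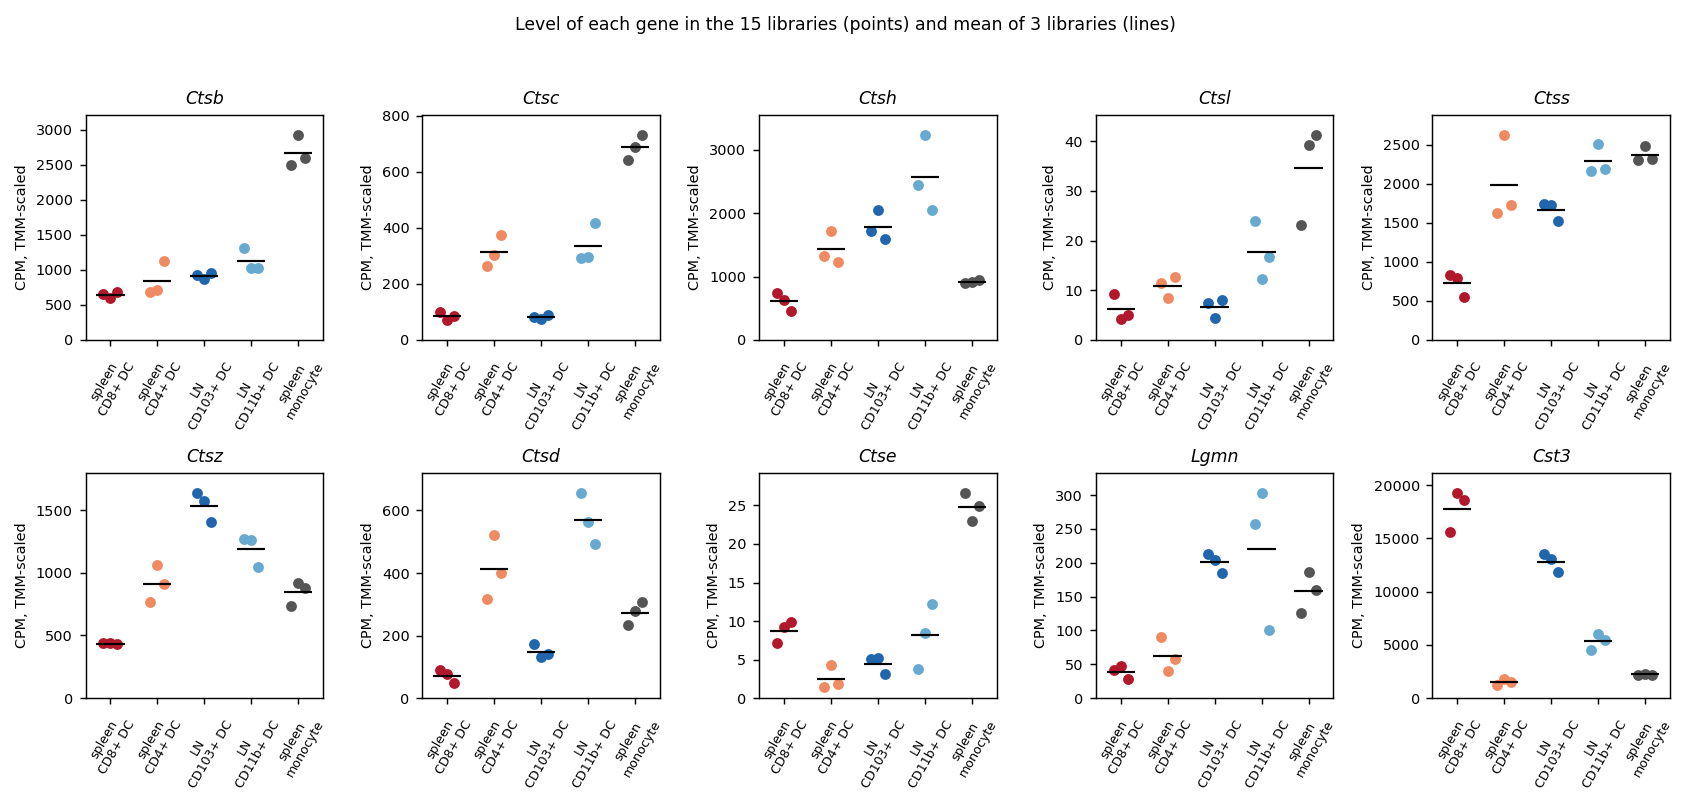
Level of each of the 10 genes in CPM (linear axes that start at 0) in every library, with 1 panel per gene; points are libraries coloured by subtype and black lines are means of 3 libraries. Splenic CD8+ DCs have the lowest mean in 7 protease panels, and in the Cst3 panel all 3 of their libraries lie above every other library.

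Ctss (ENSMUSG00000038642, chr3:95526786-95556403, plus strand) encodes cathepsin S, which makes the last cuts of the invariant chain in DCs and stays active at neutral pH. It measured 832, 799 and 549.9 CPM for splenic CD8+ DCs and 1622, 2622 and 1729 CPM for splenic CD4+ DCs. The LN subtypes had 1739.8, 1729 and 1519.8 CPM in CD103+ DCs and 2164, 2516 and 2193 CPM in CD11b+ DCs, and monocytes had 2299.6, 2491 and 2316 CPM. The 3 splenic CD8+ DC libraries were the lowest of all 15, with no overlap with any other subtype. Ctss was 2.74-fold higher in splenic CD4+ than CD8+ DCs (log2 fold change -1.45, SE 0.22, adjusted p = 6.19e-05) and 2.29-fold higher in LN CD103+ than splenic CD8+ DCs (log2 fold change 1.19, SE 0.22, adjusted p = 1.69e-04). The other 4 subtypes followed each other without a called step: monocytes exceeded LN CD11b+ DCs by 0.05 (log2, 95% interval -0.40 to 0.49), these exceeded splenic CD4+ DCs by 0.20 (-0.24 to 0.65), and these exceeded LN CD103+ DCs by 0.26 (-0.19 to 0.71). By TPM, Ctss was the most abundant of the 9 proteases in every subtype, and held rank 18 among all genes in monocytes and rank 69 in splenic CD8+ DCs.

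Ctsh (ENSMUSG00000032359, chr9:90054152-90076089, plus strand) and Ctsz (ENSMUSG00000016256, chr2:174427493-174439039, minus strand) encode exopeptidases, cathepsin H acting mainly as an aminopeptidase and cathepsin X (from Ctsz) as a carboxypeptidase. Both were lowest in splenic CD8+ DCs and lower in monocytes than in both LN DC subtypes. Ctsh measured 737, 635 and 453 CPM for splenic CD8+ DCs, 1330.0, 1726 and 1234 CPM for splenic CD4+ DCs, 1713, 2056 and 1599.7 CPM for LN CD103+ DCs, 2448, 3229.7 and 2057 CPM for LN CD11b+ DCs and 892, 913 and 950.4 CPM for monocytes. Its splenic CD8+ DC libraries lay below all others, its monocyte libraries lay below all libraries of the 3 other DC subtypes, and the LN CD103+ DC libraries lay within or just above the range of splenic CD4+ DCs and just below LN CD11b+ DCs. Ctsh was 2.35-fold higher in splenic CD4+ than CD8+ DCs (adjusted p = 4.42e-04), 2.94-fold higher in LN CD103+ than splenic CD8+ DCs (adjusted p = 1.63e-05) and 1.8-fold higher in LN CD11b+ than splenic CD4+ DCs (adjusted p = 0.00602). The last of these calls was lost in a fit of those subtypes alone (adjusted p = 0.0506).

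Ctsz measured 436, 438 and 433 CPM for splenic CD8+ DCs, 765, 1062 and 911 CPM for splenic CD4+ DCs, 1633, 1574 and 1403 CPM for LN CD103+ DCs, 1269.6, 1259 and 1047 CPM for LN CD11b+ DCs and 738, 922 and 880.3 CPM for monocytes. It was the only one of the 9 proteases with its highest mean in LN CD103+ DCs, where every library lay above the 12 others, and the splenic CD8+ DC libraries lay below the 12 others. The difference between LN CD103+ and splenic CD8+ DCs was 3.53-fold (log2 fold change 1.82, SE 0.18, adjusted p = 2.16e-07), whereas splenic CD4+ and LN CD11b+ DCs differed by 0.39 (log2, SE 0.18, adjusted p = 0.11). The test of the difference between these organ effects gave 1.43 on the log2 scale (SE 0.25, adjusted p = 0.00104).

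Ctsb (ENSMUSG00000021939, chr14:63122462-63145919, plus strand) encodes cathepsin B, an abundant enzyme that cuts both inside proteins and at their carboxyl end. It measured 652, 604 and 688 CPM for splenic CD8+ DCs, 682, 715 and 1128 CPM for splenic CD4+ DCs, 926, 873 and 955 CPM for LN CD103+ DCs and 1313, 1031 and 1025 CPM for LN CD11b+ DCs, against 2498, 2923 and 2594 CPM for monocytes. Monocytes stood above all DC libraries, and replicate 3 of splenic CD4+ DCs lay among the LN libraries. Monocytes exceeded splenic CD8+ DCs 4.12-fold (log2 fold change 2.04, SE 0.21, adjusted p = 2.48e-07), splenic CD4+ DCs 3.17-fold (adjusted p = 2.96e-06) and LN CD11b+ DCs, the next in order, by 1.25 on the log2 scale (95% interval 0.82 to 1.68). Neither the lineage nor the organ comparisons among DCs were called for Ctsb. DC1 minus DC2 gave -0.38 in spleen (95% interval -0.80 to 0.05) and -0.29 in LN (95% interval -0.72 to 0.13), and LN minus spleen gave 0.50 in DC1 (adjusted p = 0.0506). The value for DC1 passed the threshold in 10 of 25 alternative analyses. Exons of Ctsb share 16.2% of their length with Fdft1 on the other strand, and reads were counted without regard to strand. Fdft1 had a mean of 58.3 CPM for monocytes and 29.0 to 126 CPM in the DC subtypes.

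Ctsc (ENSMUSG00000030560, chr7:88278085-88310888, plus strand) encodes cathepsin C, the dipeptidyl peptidase that activates granule serine proteases. It was called between the lineages in both organs and between the organs in neither lineage. It measured 100.05, 69.9 and 86.2 CPM for splenic CD8+ DCs and 81.6, 73.3 and 90.8 CPM for LN CD103+ DCs, against 265, 303 and 375 CPM for splenic CD4+ DCs and 294, 295 and 417 CPM for LN CD11b+ DCs, and 641, 689.8 and 730.3 CPM for monocytes. All 6 DC1 libraries lay below all 6 DC2 libraries, and all DCs lay below monocytes. DC2 exceeded DC1 3.68-fold in spleen (log2 fold change of DC1 minus DC2 -1.88, SE 0.21, adjusted p = 1.85e-06) and 4.09-fold in LN (log2 fold change -2.03, SE 0.21, adjusted p = 2.02e-06). LN minus spleen was -0.06 in DC1 (95% interval -0.48 to 0.36) and 0.09 in DC2 (95% interval -0.32 to 0.51) on the log2 scale, neither of which was called. Monocytes had 8.04 times the level of splenic CD8+ DCs (adjusted p = 2.16e-09).

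Ctsl (ENSMUSG00000021477, chr13:64363214-64370306, minus strand) encodes cathepsin L, which cuts the invariant chain in the cortical epithelium of the thymus. It was low throughout, with 31 to 403 counts in a library. It measured 9.32, 4.18 and 5.04 CPM for splenic CD8+ DCs, 11.5, 8.52 and 12.7 CPM for splenic CD4+ DCs, 7.4, 4.45 and 8.12 CPM for LN CD103+ DCs, 23.9, 12.3 and 16.8 CPM for LN CD11b+ DCs and 23.2, 39.2 and 41.2 CPM for monocytes. The splenic DC subtypes overlapped, the LN subtypes did not, and monocyte replicate 1 lay below the highest LN CD11b+ DC library. DC1 were lower than DC2 in LN (log2 fold change -1.42, SE 0.36, adjusted p = 0.0113), a call lost without LN CD103+ DC replicate 2 (adjusted p = 0.0749) or without LN CD11b+ DC replicate 1 (adjusted p = 0.0727). In spleen the same comparison gave -0.81 (95% interval -1.56 to -0.06, adjusted p = 0.10), and it was called without splenic CD8+ DC replicate 1 (adjusted p = 0.0267). Ctss exceeded Ctsl in TPM 188 ± 78.3-fold in splenic CD8+ DCs and 106 ± 33.3-fold in monocytes (mean ± SD of the ratio in each library), with the other subtypes between 206 ± 83.7 in LN CD11b+ DCs and 392 ± 153 in LN CD103+ DCs.

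Ctsd (ENSMUSG00000007891, chr7:142371148-142388038, minus strand), whose promoter window held the 2 E-box matches, encodes cathepsin D, the main aspartic protease of lysosomes. It measured 88.8, 75.7 and 48.0 CPM for splenic CD8+ DCs and 317, 523 and 399 CPM for splenic CD4+ DCs, 173, 131 and 142 CPM for LN CD103+ DCs and 654, 561 and 491 CPM for LN CD11b+ DCs, and 233, 278 and 309 CPM for monocytes. DC2 libraries lay above DC1 libraries in both organs with no overlap, and monocytes lay between the lineages. DC2 exceeded DC1 5.83-fold in spleen (log2 fold change -2.54, SE 0.25, adjusted p = 4.47e-07) and 3.83-fold in LN (log2 fold change -1.94, SE 0.24, adjusted p = 2.04e-05). Ctsd was also 2.1-fold higher in LN CD103+ than splenic CD8+ DCs (adjusted p = 0.00114), while LN CD11b+ DCs exceeded splenic CD4+ DCs by 0.46 (log2, 95% interval -0.02 to 0.95, adjusted p = 0.141). The latter was called without splenic CD4+ DC replicate 2, the highest of its group (adjusted p = 0.0478). Ctsd shares 6.47% of its exon length with Ifitm10, whose mean was at most 0.483 CPM in any subtype. All 9 macrophage markers checked (Mertk, C1qa, C1qb, C1qc, Vcam1, Marco, Siglec1, Adgre1 and Timd4) had counts in every subtype, and summed to 1034 to 1333 CPM for splenic CD4+ DCs, 653 to 948 CPM for LN CD11b+ DCs, 431 to 524 CPM for monocytes, 245 to 293 CPM for LN CD103+ DCs and 170 to 276 CPM for splenic CD8+ DCs. The sum was thus higher in DC2 than in DC1 in both organs, as Ctsc and Ctsd were, and its part in those differences was not tested. Single markers differed in this, as the sum of splenic CD4+ DCs came mainly from Adgre1 (mean 664 CPM) and Vcam1 (321 CPM), and Timd4 averaged 62.0 CPM for LN CD103+ DCs and 18.2 CPM for LN CD11b+ DCs.

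Ctse (ENSMUSG00000004552, chr1:131638306-131675503, plus strand) encodes cathepsin E, an aspartic protease of endosomes. It was the single protease called higher in splenic CD8+ than CD4+ DCs, and it was scarce, with 11 to 236 counts in a library. It measured 7.17, 9.17 and 9.85 CPM for splenic CD8+ DCs, 1.42, 4.26 and 1.83 CPM for splenic CD4+ DCs, 5.02, 5.15 and 3.15 CPM for LN CD103+ DCs, 3.76, 8.5 and 12.2 CPM for LN CD11b+ DCs and 26.6, 22.9 and 24.9 CPM for monocytes. Monocytes lay above every DC library, splenic CD8+ DCs lay above splenic CD4+ DCs, and LN CD11b+ DCs spread over the ranges of the other DC subtypes. The level in monocytes was 2.84 times that in splenic CD8+ DCs (SE 0.39 on the log2 scale, adjusted p = 0.00424). Splenic CD8+ DCs exceeded splenic CD4+ DCs 3.49-fold (log2 fold change 1.82, SE 0.44, adjusted p = 0.00434), or by 2.43 on the log2 scale without splenic CD4+ DC replicate 2. The organ effect was -0.96 in DC1 (adjusted p = 0.0616) and 1.69 in DC2 (adjusted p = 0.00617), or 2.29 in DC2 without that replicate. The difference between these effects was called (-2.65 on the log2 scale, SE 0.60, adjusted p = 0.00698; -3.25 without that replicate).

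Lgmn (ENSMUSG00000021190, chr12:102394084-102439813, minus strand) encodes asparaginyl endopeptidase, or legumain, which cuts after asparagine, opens some antigens and the invariant chain, and matures several cathepsins. It was called between the organs in both lineages and between the lineages in neither organ. It measured 41.5, 47.0 and 29.0 CPM for splenic CD8+ DCs and 89.7, 39.9 and 58.3 CPM for splenic CD4+ DCs, against 213, 204 and 185 CPM for LN CD103+ DCs, 257, 302 and 101 CPM for LN CD11b+ DCs and 126, 187 and 159 CPM for monocytes. All LN libraries lay above all splenic DC libraries, although LN CD11b+ DC replicate 3 was far below the other 2 of its group. LN exceeded spleen 5.13-fold in DC1 (log2 fold change 2.36, SE 0.34, adjusted p = 1.75e-05) and 3.51-fold in DC2 (log2 fold change 1.81, SE 0.34, adjusted p = 3.69e-04). DC1 minus DC2 was -0.68 in spleen (95% interval -1.38 to 0.02) and -0.13 in LN (95% interval -0.81 to 0.55), and neither was called.

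Cst3 (ENSMUSG00000027447, chr2:148871722-148875692, minus strand), the inhibitor, moved over the widest range. Splenic CD8+ DCs had 15578, 19214 and 18581 CPM and LN CD103+ DCs 13486, 13089.5 and 11858 CPM, against 1238, 1815 and 1546 CPM for splenic CD4+ DCs, 4551, 5989.7 and 5477 CPM for LN CD11b+ DCs and 2185, 2297 and 2179 CPM for monocytes. The 5 subtypes did not overlap in Cst3, and both DC1 subtypes lay above all others. By TPM, Cst3 held rank 2 of all genes in splenic CD8+ DCs, 5 in the DC1 of LN, 8 in the DC2 of LN, 17 in monocytes and 32 in splenic CD4+ DCs. It took 1.88 ± 0.145% of all counts in splenic CD8+ DCs and 0.157 ± 0.0191% in splenic CD4+ DCs. DC1 exceeded DC2 11.6-fold in spleen (log2 fold change 3.54, SE 0.22, adjusted p = 2.95e-09) and 2.4-fold in LN (log2 fold change 1.26, SE 0.20, adjusted p = 3.04e-04). The organ effect was -0.47 in DC1 (adjusted p = 0.0629) and 1.80 in DC2 (SE 0.21, adjusted p = 2.20e-06), and the difference between them was -2.27 on the log2 scale (SE 0.29, adjusted p = 4.46e-05). The effect in DC1 passed the threshold in 5 of 25 alternative analyses.

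Set against each other in TPM, splenic CD8+ DCs held the most Cst3 and the least of its targets. The 6 cysteine cathepsins summed to 2813 ± 405 TPM in splenic CD8+ DCs, 6816 ± 346 TPM in LN CD103+ DCs, 6763 ± 735 TPM in splenic CD4+ DCs, 8519 ± 264 TPM in LN CD11b+ DCs and 8505 ± 231 TPM in monocytes. The libraries of splenic CD8+ DCs held 9.55, 12.5 and 14.7 Cst3 transcripts per cysteine cathepsin transcript, and those of LN CD103+ DCs 3.41, 3.27 and 3.37. The ratio was 1.02, 1.2 and 1.34 in LN CD11b+ DCs, 0.554, 0.519 and 0.524 in monocytes and 0.424, 0.425 and 0.475 in splenic CD4+ DCs. No library of 1 subtype overlapped with one of another in this ratio, which stood above 1 in all LN and all splenic CD8+ DC libraries and below 1 in the rest. With 3 libraries against 3, an exact permutation test cannot give a 2-sided p below 0.1, and none is given. These are transcripts in cell lysates, and a secreted protein need not follow them. Across the 15 libraries, log2 CPM of Cst3 had a Pearson r of -0.85 with Ctsc, -0.73 with Ctsd and -0.68 with Ctss. It was -0.67 with Ctsl and -0.50 with Ctsb, but -0.18 with Ctsh, -0.16 with Ctsz, -0.09 with Lgmn and 0.06 with Ctse. These values are a description over libraries that come from 5 subtypes.

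**Figure D2:**
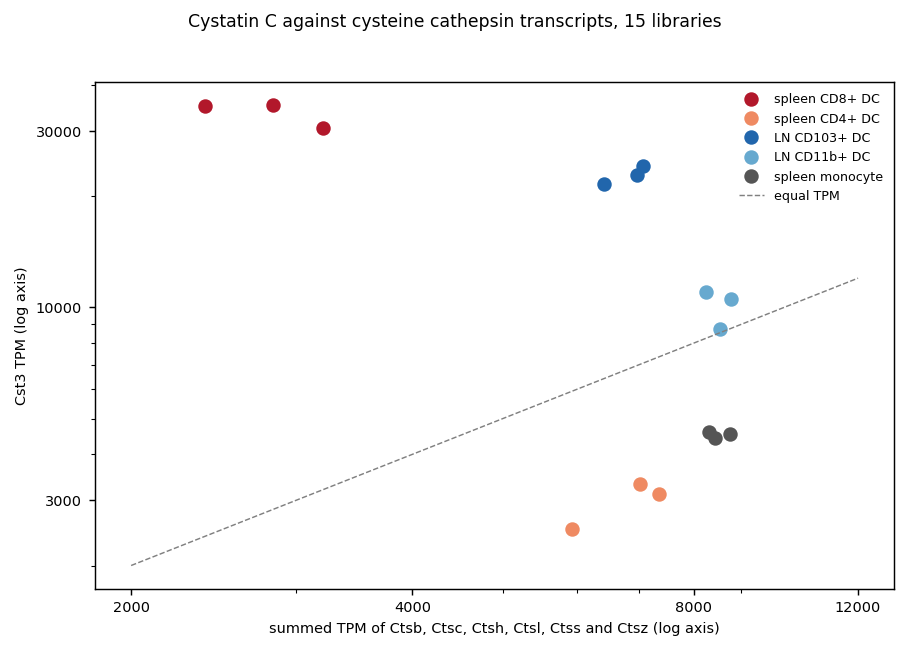
Cst3 in TPM (vertical, log axis) against the summed TPM of 6 cysteine cathepsins (horizontal, log axis), with 1 point per library coloured by subtype and a dashed line of equal TPM. Splenic CD8+ DCs lie at the upper left, monocytes and splenic CD4+ DCs lie below the line, and all LN libraries lie above it.

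All 9 proteases summed to 2928 ± 433 TPM in splenic CD8+ DCs and to between 7147 ± 364 TPM in LN CD103+ DCs and 9289 ± 376 TPM in LN CD11b+ DCs elsewhere. Ctss made up 38.7 ± 0.305% of this sum in LN CD103+ DCs and 50.1 ± 1.49% in monocytes, with the other subtypes in between. Ctsz took its largest share in LN CD103+ DCs (33.7 ± 0.743%) and its smallest in monocytes (16.8 ± 1.02%). Ctsb took 16.2 ± 0.503% in monocytes and 11.4 ± 2.27% in splenic CD8+ DCs, against 6.15 ± 0.69% in LN CD103+ DCs. Ctsh took 19.1 ± 2.44% in LN CD11b+ DCs and 7.66 ± 0.426% in monocytes. The aspartic Ctsd took 5.82 ± 0.761% and 5.53 ± 0.384% in the LN and splenic DC2, and 1.86 ± 0.266% and 2.28 ± 0.398% in the LN and splenic DC1. Shares add up to a whole within a library, so a larger share of 1 gene lowers the others.

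**Figure D3:**
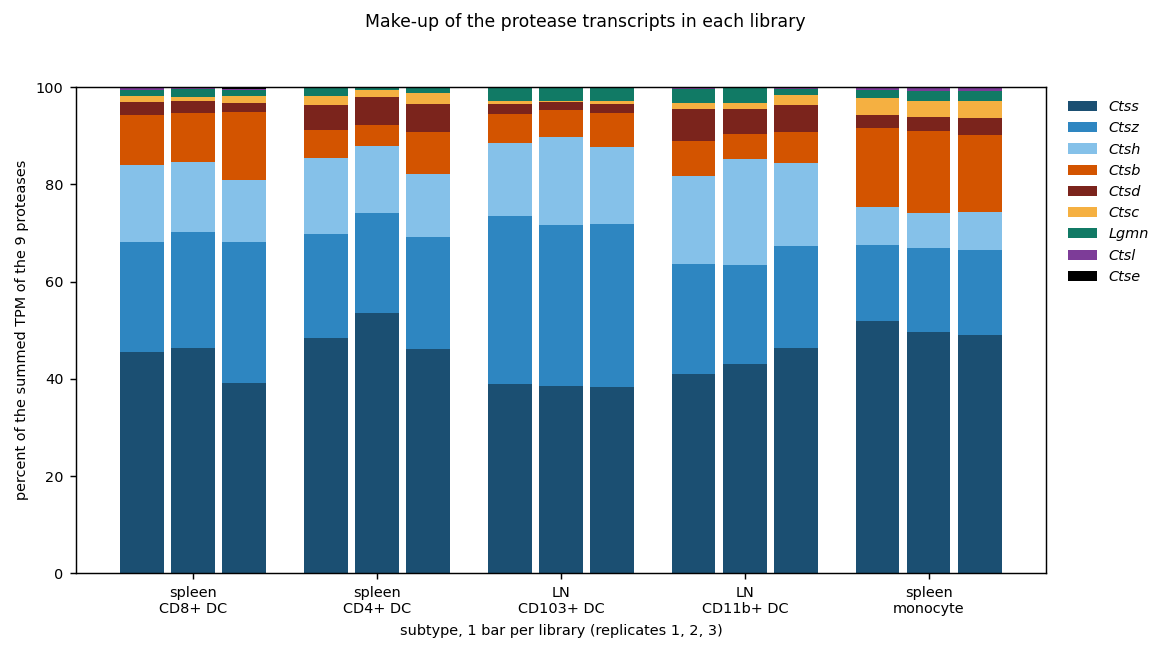
Percent of the summed TPM of the 9 proteases (vertical, from 0 to 100) taken by each protease, with 1 stacked bar per library grouped by subtype. Ctss is the largest block in each bar, Ctsz is widest in LN CD103+ DCs, and Ctsb is widest in monocytes.

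Comparing DC1 with DC2 asks which genes go with the lineage in each organ. In spleen, 7 of the 10 genes were called (27.4% of all genes tested), with Ctss, Ctsh, Ctsz, Ctsc and Ctsd lower (14.4% of all genes) and Cst3 and Ctse higher (13.1%) in CD8+ DCs. The median log2 fold change of the 10 genes was -0.94, against 0.00 over all genes tested. In LN, 4 of the 10 were called (12.9% of all genes tested), with Ctsc, Ctsd and Ctsl lower (7.73%) and Cst3 higher (5.22%) in CD103+ DCs. The median there was -0.49, against -0.01 over all genes. With the replicate number as a block within LN, 7 of the 10 were called in LN, the added ones being Ctsh (-0.53, adjusted p = 0.0041 with the block and 0.135 without), Ctss (-0.48 with the block, adjusted p = 0.00784) and Ctsz (0.35 with the block, adjusted p = 0.0486). The share of all genes called with the block is not given. A rise in the calls of these genes therefore cannot be told from a rise over all genes.

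Comparing LN with spleen within a lineage asks what goes with the organ, the cohort and the gate together. Among DC1, 5 of the 10 genes were called (45.6% of all genes tested), a share near that of all genes. All 5 (Lgmn, Ctsz, Ctsh, Ctss and Ctsd) were higher in LN, in a comparison that called 23.8% of genes higher and 21.8% lower. Without splenic CD4+ DC replicate 2, which belongs to neither subtype compared, 8 were called. That fit had its own filter, TMM factors, estimate of spread and adjustment, and the share of all genes it called is not given. Among DC2, 4 of the 10 were called (33.1% of all genes tested), again a share near that of all genes, and Lgmn, Cst3, Ctse and Ctsh were all higher in LN (19.3% of genes higher, 13.8% lower). The difference between the organ effects of the lineages was called in 4 of the 10 (11.2% of all genes tested), positive for Ctsz and Ctss (5.17% of genes) and negative for Cst3 and Ctse (6.03%). For Ctss it was 0.99 on the log2 scale (SE 0.30, adjusted p = 0.0396), and that call was lost in 14 of 25 alternative analyses, among them a fit without the monocytes (adjusted p = 0.0804) and fits without single libraries of every subtype.

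**Figure D4:**
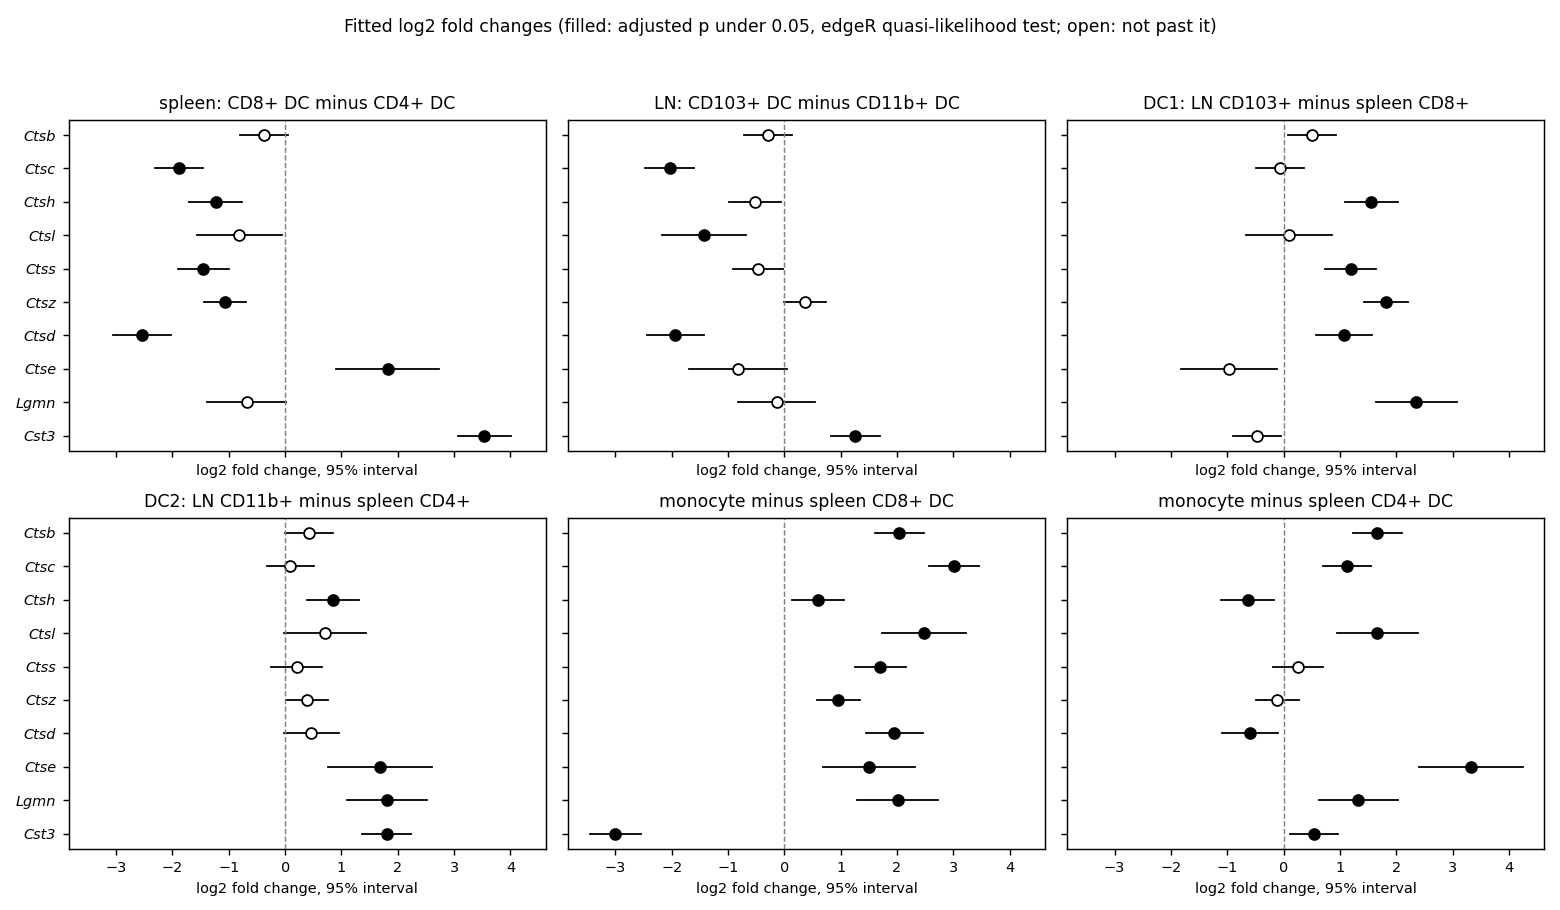
Fitted log2 fold changes (horizontal) of the 10 genes in 6 comparisons, with 1 panel each; bars are 95% intervals, filled points are past an adjusted p of 0.05 in edgeR's quasi-likelihood test and open points are not. The spleen panel holds 5 filled points left of 0 and 2 right of it, both organ panels have filled points right of 0 alone, and in the panel of monocytes minus splenic CD8+ DCs Cst3 alone lies left of 0.

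Monocytes were compared with each splenic DC subtype from the same organ. Against splenic CD8+ DCs, all 10 genes were called (42.1% of all genes tested), the 9 proteases higher (20.4% of all genes) and Cst3 lower (21.7%). The largest protease difference was that of Ctsc (8.04-fold, log2 fold change 3.01) and the smallest that of Ctsh (1.51-fold, 0.59, adjusted p = 0.0374). Leaving out splenic CD8+ DC replicate 2 or 3 or any monocyte library ended the call for Ctsh (adjusted p from 0.069 to 0.166). Cst3 was 8.01-fold lower in monocytes (log2 fold change -3.00, SE 0.22, adjusted p = 2.69e-09). Neutrophil markers summed to 141 to 237 CPM for monocytes and to at most 1.49 CPM in any DC library, and their part in the monocyte comparisons was not tested.

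Against splenic CD4+ DCs, 8 of the 10 were called (48.0% of all genes tested). Ctse (9.9-fold), Ctsb and Ctsl (both 3.17-fold), Lgmn (2.52-fold), Ctsc (2.18-fold) and Cst3 (1.45-fold) were higher in monocytes (23.8% of all genes). Ctsh (-0.64 on the log2 scale, adjusted p = 0.0238) and Ctsd (-0.59, adjusted p = 0.0428) were lower (24.2% of all genes). The value of Ctse was 3.93 on the log2 scale without splenic CD4+ DC replicate 2 and 3.32 with it. The calls for Cst3, Ctsh and Ctsd were those that other settings ended: without monocyte replicate 1, 2 or 3, none of them was called, and 5 of the 10 genes were. Ctss (95% interval -0.19 to 0.70) and Ctsz (95% interval -0.48 to 0.27) were not called. Against the mean of the 4 DC subtypes, 8 of the 10 were called (52.9% of all genes tested), 6 higher (26.4%) and 2 (Cst3 and Ctsh) lower (26.5%) in monocytes. The call for Lgmn (0.63 on the log2 scale, adjusted p = 0.0401) was lost without monocyte replicate 2 (adjusted p = 0.2) or 3 (0.104) and without 4 of the single DC libraries. Against LN CD103+ DCs, 8 of the 10 were called (53.2% of all genes tested), with Ctsc, Ctse, Ctsl, Ctsb and Ctsd higher (24.6%) and Cst3, Ctsh and Ctsz lower (28.6%) in monocytes. Against LN CD11b+ DCs, 8 were called (47.8%), with Ctse, Ctsb, Ctsc and Ctsl higher (21.3%) and Ctsh, Cst3, Ctsd and Ctsz lower (26.5%). Against LN CD11b+ DCs, the call for Ctsl was lost without LN CD11b+ DC or monocyte replicate 2 or 3 (adjusted p from 0.0612 to 0.114), that for Ctsz without LN CD11b+ DC replicate 1 or 2 or monocyte replicate 1 or 3 (0.0627 to 0.130), and Lgmn was called without LN CD11b+ DC replicate 3 (0.0206). Against LN CD103+ DCs, Ctss was called without splenic CD8+ DC replicate 3 or any splenic CD4+ DC library (adjusted p from 0.0229 to 0.0481).

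The DC subtypes that differ in both lineage and organ were also set side by side. LN CD11b+ DCs differed from splenic CD8+ DCs in 9 of the 10 (39.9% of all genes tested), 8 proteases being higher (22.5%) and Cst3 lower (17.3%), with Ctse not called. LN CD103+ and splenic CD4+ DCs differed in 5 of the 10 (47.0%), a share near that of all genes. Cst3, Lgmn and Ctsz were higher (24.8%) and Ctsc and Ctsd lower (22.2%) in LN CD103+ DCs. The comparisons with monocytes share the monocyte libraries, and those among DCs share DC libraries.

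Other proteases and helpers of the same compartment were read from lists. Of 13 other genes of lysosomal protein breakdown (proteases and the thiol reductase Ifi30), 11 passed the filter, and 6 were lower (14.4% of all genes tested) and none higher (13.1%) in splenic CD8+ than CD4+ DCs, with a median log2 fold change of -0.78 against 0.00 over all genes tested. Ctsa, cathepsin A, had the largest difference there (log2 fold change -1.41, SE 0.25, adjusted p = 3.82e-04). It measured 1051 ± 9.77 CPM for monocytes and 35.7 ± 13.8 CPM for LN CD103+ DCs, against 329.6 ± 89.1 CPM for LN CD11b+ DCs (log2 fold change -3.21, SE 0.27, adjusted p = 2.68e-07), and 17.4% of its exon length is shared with other genes. Napsa, the aspartic protease napsin A, measured 941 ± 133 CPM for splenic CD4+ DCs and 196 ± 31.3 CPM for LN CD11b+ DCs (log2 fold change -2.26, SE 0.20, adjusted p = 7.79e-08), a direction opposite to that of Lgmn. Of the 11, 5 were higher and 3 lower in LN CD103+ than splenic CD8+ DCs, against 23.8% and 21.8% of all genes. The serine carboxypeptidase gene Scpep1 led them (log2 fold change 2.56, SE 0.18, adjusted p = 2.42e-09), and Ifi30, which reduces disulfide bonds of antigens, was higher in LN, at 476 ± 40.2 against 186 ± 51.5 CPM (log2 fold change 1.35, SE 0.25, adjusted p = 2.13e-04). Ctsw, a cathepsin of cytotoxic lymphocytes, differed most between monocytes and splenic DCs, with 0.252 ± 0.355 CPM for monocytes, 1.95 ± 1.47 CPM in CD8+ DCs (log2 fold change -2.81, SE 0.90, adjusted p = 0.0166) and 2.23 ± 1.27 CPM in CD4+ DCs (log2 fold change -3.03, SE 0.90, adjusted p = 0.00954). These fold changes rest on few counts, with 6 over the monocyte libraries, 47 over splenic CD8+ DCs and 46 over splenic CD4+ DCs.

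Of 11 other cystatins and cathepsin inhibitors, 3 passed the filter, and their means stayed at or under 97.7 CPM in every subtype. Cstb, the cystatin of the cytosol, measured 25.9 ± 9.53 CPM for splenic CD8+ DCs and 11.4 ± 6.69 CPM for splenic CD4+ DCs, against 97.7 ± 9.18 and 89.0 ± 17.8 CPM for LN CD103+ and CD11b+ DCs. It was higher in LN within both lineages (DC2: log2 fold change 2.97, SE 0.35, adjusted p = 3.19e-06). Cst7, the endosomal cystatin F, was lower in DC1 than DC2 in spleen (1.19 ± 0.159 and 10.6 ± 2.26 CPM, log2 fold change -3.13, SE 0.66, adjusted p = 0.00169) and in LN (log2 fold change -2.08, SE 0.64, adjusted p = 0.0387), the reverse of Cst3. Ctla2b, which encodes a protein like a cathepsin propeptide, had 199 counts over the splenic CD8+ DC libraries, 1 over splenic CD4+ DCs, 10 over LN CD103+ DCs, 1 over LN CD11b+ DCs and 0 over monocytes.

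Of 11 genes for the delivery of lysosomal enzymes and for lysosomal transcription factors, all were tested, and 5 were called between splenic DC subtypes (27.4% of all genes) and 4 between LN DC subtypes (12.9%). Between organs 5 were called in DC1 and 4 in DC2, near the shares of all genes (45.6% and 33.1%). Between monocytes and splenic CD8+ DCs 9 were called, 7 of them higher (42.1% of all genes called and 20.4% higher). Psap, the precursor of the saposins, measured 4612 ± 1586 CPM for splenic CD8+ DCs, 839 ± 353 CPM for splenic CD4+ DCs and 6029 ± 1883 CPM for monocytes (CD8+ minus CD4+ DCs: log2 fold change 2.46, SE 0.38, adjusted p = 8.33e-05). Of the mannose 6-phosphate receptors, which carry cathepsins to endosomes, M6pr was lower in monocytes than in splenic CD8+ DCs (log2 fold change -0.89, SE 0.20, adjusted p = 0.00165). Igf2r measured 62.3 ± 10.7 CPM for splenic CD8+ DCs and 74.3 ± 4.41 CPM for LN CD103+ DCs, against 2.61 ± 1.45 CPM for splenic CD4+ DCs and 16.7 ± 10.1 CPM for LN CD11b+ DCs (LN minus spleen in DC2: log2 fold change 2.67, SE 0.43, adjusted p = 8.09e-05). Tfeb, a factor that binds E-boxes of lysosomal genes, measured 47.3 ± 1.57 CPM for splenic CD8+ DCs and 188 ± 71.0 CPM for splenic CD4+ DCs (log2 fold change -1.99, SE 0.27, adjusted p = 1.97e-05). It measured 63.3 ± 9.91 CPM for LN CD103+ DCs, 80.9 ± 27.4 CPM for LN CD11b+ DCs and 158 ± 9.03 CPM for monocytes. A link of Tfeb to the E-box matches of Ctsd was not tested. Tfec was counted once over the splenic CD8+ DC libraries and 3 times over LN CD103+ DCs, against 4.43 ± 3.33 CPM for LN CD11b+ DCs and 6.4 ± 2.24 CPM for monocytes.

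Of 15 genes for lysosomal membrane proteins and the proton pump, 14 were tested. Between DC1 and DC2, 3 of them were called in spleen (27.4% of all genes) and 2 in LN (12.9%). Between organs, 7 were called in each lineage (45.6% of all genes in DC1 and 33.1% in DC2). Of these, 6 were higher in LN in each lineage (23.8% of all genes in DC1 and 19.3% in DC2). The shares called in either direction were near those of all genes in spleen, in LN and in DC1. Lamp1, an abundant lysosomal membrane protein, measured 150.3 ± 19.8 and 219 ± 5.27 CPM for splenic CD8+ and CD4+ DCs and 1344 ± 137 and 1265 ± 269.8 CPM for LN CD103+ and CD11b+ DCs (DC1: log2 fold change 3.16, SE 0.20, adjusted p = 9.42e-10). Cd63, a tetraspanin of late endosomes, showed the largest organ difference in DC1 (log2 fold change 5.53, SE 0.55, adjusted p = 1.62e-07), from 9.57 ± 9.08 to 448 ± 27.8 CPM. Scarb2, a lysosomal membrane receptor, differed most between the splenic DC subtypes (log2 fold change 1.03, SE 0.24, adjusted p = 0.0039), and Cd68 between those of the LN (log2 fold change -1.89, SE 0.25, adjusted p = 3.35e-05). Atp6v1b2 and Lamp2, the next in level, were higher in monocytes than in splenic CD8+ DCs (log2 fold change 1.70, SE 0.20, adjusted p = 1.36e-06 for Atp6v1b2 and log2 fold change 2.18, SE 0.20, adjusted p = 4.40e-08 for Lamp2). Of the invariant chain gene Cd74 and the class II genes H2-Ab1 and H2-Aa, all 3 were lower in LN CD103+ than splenic CD8+ DCs, with a median log2 fold change of -2.60 against 0.00 over all genes tested, where Ctss was higher.

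Genes with a pattern most like that of a member were sought by Pearson r of log2 CPM over the 15 libraries among 7012 genes with a mean of at least 20 CPM, and 2 were taken for each. Cst3 ran most like Itgae (r = 0.976), which encodes CD103, the sorting marker of LN DC1, and Sh3pxd2b (0.967). Itgae averaged 107 CPM for splenic CD8+ DCs and 27.2 CPM for LN CD103+ DCs. Ctsz ran most like Rab20 (0.988), which encodes a small GTPase of endosomes and phagosomes, and F11r (0.973). Ctsb ran most like Polg (0.975) and Tppp3 (0.969), Ctss like Mcemp1 (0.968) and Gab2 (0.966), and Ctsh like Ogfrl1 (0.951) and Il2rg (0.948). Ctsc ran like Fcer1g (0.963), the shared signalling chain of Fc receptors, and Selenop (0.963). Ctsl ran like Wfdc17 (0.958) and Msr1 (0.939), a scavenger receptor, and Ctsd like Rasgrp1 (0.947) and Pld3 (0.944), which encodes a lysosomal exonuclease. For Lgmn they were Mapkapk5 (0.961) and Zfp984 (0.938), and for Ctse Ctbp2 (0.920) and Padi2 (0.915). Libraries of 1 subtype are not independent points in such an r.

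Libraries held 4531243 to 10233914 counts on genes (median 7331110), with 15222 to 17693 genes counted. The labels were checked against marker genes by summed CPM. The DC markers (Flt3, Zbtb46, Itgax and H2-Ab1) summed to at least 2872 CPM in every DC library and at most 1814 CPM for monocytes. Single DC markers differed in this. H2-Ab1 and Itgax averaged 1766 and 101 CPM for LN CD103+ DCs, near the 1457 and 61.5 CPM for monocytes. Flt3 and Zbtb46 averaged 1363 and 428 CPM for LN CD103+ DCs, against 74.2 and 6.84 CPM for monocytes. The DC1 markers (Xcr1, Clec9a, Cadm1, Irf8 and Batf3) summed to 3324 to 5109.6 CPM for splenic CD8+ DCs and to 775 to 1081 CPM for LN CD103+ DCs, above the other 3 subtypes (131 to 594 CPM). Irf8 was most of this sum in LN CD103+ DCs (mean 613 CPM) and in monocytes (522 CPM). Xcr1, Clec9a and Cadm1 averaged 55.2, 34.5 and 98.2 CPM for LN CD103+ DCs and 716, 288 and 579 CPM for splenic CD8+ DCs. Their means were at most 4.53, 7.46 and 39.4 CPM in the other 3 subtypes. Batf3 averaged 83.6 CPM for LN CD103+ and 74.5 CPM for LN CD11b+ DCs. The DC1 sorting markers Cd8a and Itgae summed to 424 to 761 CPM for splenic CD8+ DCs and 36.5 to 60.1 CPM for LN CD103+ DCs. In the other subtypes they summed to at most 19.2 CPM. The DC2 markers (Sirpa, Irf4, Cd4 and Itgam) summed to 1416 to 2446 CPM for splenic CD4+ DCs and 784 to 868 CPM for LN CD11b+ DCs, above the 57.8 to 167 CPM for splenic CD8+ and the 53.0 to 70.9 CPM for LN CD103+ DCs. They summed to 2277 to 2595 CPM for monocytes, so that this sum told DC2 from DC1 but not from monocytes. The 6 monocyte markers summed to 7160.5 to 7881 CPM for monocytes and to at most 679 CPM in any DC library. The markers of migratory DCs (Ccr7, Fscn1 and Ccl22) summed to 5577 to 12709 CPM for LN DC libraries and to at most 349 CPM for splenic ones. Among DCs this split went with the organ as Lgmn did. In splenic monocytes these markers summed to at most 12.2 CPM, while Lgmn overlapped with LN CD11b+ DCs. Plasmacytoid DC markers (Siglech, Ccr9, Klk1 and Tcf4) summed to 122 to 222 CPM for splenic CD8+ DCs and 48.5 to 122 CPM in the other subtypes. Their part in the differences of splenic CD8+ DCs was not tested. T cell markers summed to 51.7 to 105 CPM for LN DC libraries and at most 4.78 CPM for splenic ones. B cell markers summed to 218 CPM for LN CD103+ DC replicate 1 against 15.3 CPM in the lowest library of its group. Without that library, 4 of the 10 genes were called between LN DC subtypes and 5 between the DC1 of both organs, the same numbers as with it. Equal numbers do not show that the fold changes stayed the same, and the part of B cell RNA was not tested.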

How the data were processed

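RNA of 15 pools of sorted cells was sequenced on an Ion Torrent instrument. Per the file headers and the study's methods, the authors mapped reads to mm10 with STAR 2.4.0j and counted them per Ensembl gene with featureCounts (Subread 1.5.2) without regard to strand, a read over several genes being counted for each. The deposited files hold raw counts per gene, counts per run (the monocyte libraries had 2 runs, which sum to the deposited counts) and TPM computed by the authors from the counts and exon lengths. Symbols were matched to 37607 of the 38924 identifiers.

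Counts were tested with edgeR 4.0.16 (R 4.3.3): genes above 1 CPM in at least 3 libraries, TMM factors (0.883 to 1.10), 1 mean per subtype over all 15 libraries with 10 residual degrees of freedom, the quasi-likelihood test and Benjamini-Hochberg adjustment. The fits were tested on simulated data. Depth was 4531243 to 10233914 counts per library, and intervals cover 95%. Alternatives used DESeq2 1.42.0, limma 3.58.1 on log2(TPM + 1) or log2(TPM + 0.1), other factors and filters, single libraries left out and the replicate number as a block.

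Deviations from subtype means correlated between same-numbered libraries by -0.04 to 0.38. All 3 pairs exceeded 0.1 for the splenic DCs and for the LN DCs. They also did for DC2 of both organs and for LN CD103+ with splenic CD4+ DCs. They did not for DC1 of both organs, for LN CD11b+ with splenic CD8+ DCs or for monocytes with any DC subtype. LN and spleen came from separate cohorts of mice, so these correlations cannot show that their libraries are paired. What the replicate numbers stand for was not tested.

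Genes and lists were chosen with earlier results of these data known, and motifs after the values were known. All 10 genes are described. Of other lists, the 3 genes of highest mean CPM and the gene of largest called change per comparison described are named. Promoter sequences are from RefSeq (GRCm38.p6).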

Additional observations from a re-analysis of the deposited data

Results flagged for a closer look

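For 4 genes the LN minus spleen difference was not the same in DC1 and DC2, by the interaction term of edgeR's quasi-likelihood test with Benjamini-Hochberg adjustment. The difference of the differences (DC1 minus DC2, log2) was 1.43 for Ctsz (adjusted p = 0.00104) and 0.99 for Ctss (adjusted p = 0.0396), with organ differences of 1.82 and 1.19 in DC1 and 0.39 and 0.20 in DC2. The call for Ctss was lost in 14 of 25 alternatives, with values from 0.74 to 1.12. It was -2.27 for Cst3 (adjusted p = 4.46e-05) and -2.65 for Ctse (adjusted p = 0.00698), with organ differences of -0.47 and -0.96 in DC1 and 1.80 and 1.69 in DC2. The organ, the cohort and the MHC class II gate cannot be told apart in these values.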

How the results depend on the processing

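Over 27 alternatives and 12 comparisons, 2956 of 3080 values of a gene in a comparison kept their side of the threshold, 14 of which were not called either way and changed sign, 83 lost the call, 41 gained it and none reversed a called direction. Of 80 called results, 18 were lost under at least 1 alternative. The alternatives for LN CD103+ DCs against splenic CD4+ DCs, LN CD11b+ against splenic CD8+ DCs and monocytes against each LN subtype were chosen after seeing the data. When a log2 fold change of at least 1 was also asked for, 5 genes were called between monocytes and splenic CD4+ DCs, 5 between monocytes and the mean of DCs, 5 between monocytes and LN CD103+ DCs and 9 of the neighbouring pairs. With the replicate block within LN, 7 genes were called between LN DC1 and DC2, with Ctsh, Ctss and Ctsz added. Shares of all genes called under the alternatives are not given beside these counts. The block over all subtypes left 5 called between LN CD103+ and splenic CD4+ DCs. It gave 7 genes for DC1 between organs, which came from separate cohorts, with Ctsb (adjusted p = 0.0337) and Cst3 (0.0316) added. It also called Ctss between monocytes and LN CD103+ DCs (adjusted p = 0.0206). Neither block changed any other call of the 10 genes in the 12 comparisons. Leaving out 1 library gave 5 to 8 genes for DC1 between organs and 5 to 8 for monocytes against splenic CD4+ DCs. The cause was not tested. The fit of only the subtypes compared is the same as the one reported for monocytes against the mean of DCs. Upper quartile factors moved the median log2 fold change of all genes by -0.14 for monocytes against CD8+ DCs, -0.12 against CD4+ DCs and -0.12 against the mean of DCs. With them Ctsh between monocytes and CD8+ DCs went from 0.59 to 0.46 and lost its call (adjusted p = 0.0934). The low counts of Ctse and Ctsl limit their precision.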
